A study of Mus musculus with 26 samples.

Results

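Whole-liver messenger RNA was compared between floxed mice fed cholic acid and floxed mice fed chow. The comparison holds 6 of the 26 libraries of the series, and they were taken by their labelled genotype and diet. Cholic acid is a primary bile acid, and feeding it raises the bile acid load that the liver has to handle. All 6 libraries are from mice with floxed alleles of both Fxr and Shp (fl/fl Fxr fl/fl Shp) on a C57BL/6J background. The labels name no Cre for them. The mice were 10 to 12 weeks old and had been fasted for 8 to 10 h. In the chow group and in the cholic acid group there were 3 libraries each, numbered 1 to 3. The labels give neither the dose of cholic acid nor the length of feeding, and they do not give the sex. Xist, which is expressed from the inactive X chromosome of females, had at most 1 count per library, and the Y-linked gene Ddx3y had 830 to 1853 counts. Of 47643 genes in the table, 12577 had enough counts to be tested.

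Bile acids are made from cholesterol in hepatocytes, and Cyp7a1 catalyses the first step of the main route. Bile acids bind the nuclear receptor Fxr (gene Nr1h4), which induces the repressor Shp (gene Nr0b2) and the pumps that export bile acids, and synthesis is shut down in turn. The receptors Pxr (gene Nr1i2) and Car (gene Nr1i3) respond to foreign compounds and to some bile acids, and they induce enzymes and transporters of detoxification.

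Levels below are in CPM, read counts divided by library size, with sizes scaled between libraries by the TMM method. A difference is a log2 fold change of cholic acid over chow, given with its standard error (SE). A gene is said to have risen or fallen where edgeR's quasi-likelihood test gave a Benjamini-Hochberg adjusted p under 0.05 over all genes tested, with 3 libraries in each group. Reads counted to genes ranged from 13949059 to 15932893 per library on chow and from 18561979 to 19496566 on cholic acid. A level of 3 counts, the most that a count of 0 allows, was 0.218 CPM in chow 1. The hepatocyte product albumin (Alb) stood at 72066, 83801 and 82908 CPM on chow and 100880.0, 100302 and 78297 CPM on cholic acid, and these groups overlapped.

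The library chow 3 stood apart from the other chow libraries and is shown separately throughout. Of the genes tested, 1386 (11.02%) lay more than 2-fold above or below both other libraries of its group in chow 3. The same count was 124 to 375 genes (0.986% to 2.98%) in each of the other 5 libraries. Over genes, the log2 levels of chow 3 correlated with those of chow 1 and chow 2 at 0.944 and 0.947, against 0.985 between chow 1 and chow 2. The serum amyloid gene Saa1, an acute phase reactant, was at 61.5, 59.9 and 5154 CPM in chow 1, 2 and 3 and at 32.5, 28.8 and 77.9 CPM on cholic acid. Its near-copy Saa2 was at 11.1, 21.1 and 3705 CPM on chow and 15.7, 11.9 and 28.5 CPM on cholic acid. Lcn2, an iron-sequestering protein of the same response, stood at 4.28, 6.49 and 255 CPM on chow and 11.6, 11.4 and 12.4 CPM on cholic acid. In all 3 genes chow 3 was the highest of the 6 libraries.

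The clock activators Arntl (16.1, 14.1 and 1.92 CPM on chow) and Npas2 (3.05, 1.54 and 0.0711 CPM on chow) were lowest in chow 3, and the clock output gene Dbp was highest there (4.28, 10.4 and 99.6 CPM on chow). Some clock genes lay closer to chow 1 and chow 2, with chow 3 at 1.17-fold of their mean for Nr1d1, 1.18-fold for Per2, 0.826-fold for Per1 and 0.634-fold for Clock. Of the 20 clock genes, 13 were above and 7 below both other chow libraries in chow 3, with a median log2 difference of 0.25 from them. Of all genes tested, 43.3% were above both and 41.4% below both. Hepcidin (Hamp), the hormone that limits iron release, was at 1080.5, 1576 and 127 CPM on chow and 753, 741 and 468 CPM on cholic acid. The stress-induced factor Atf3 was at 1.09, 1.07 and 130.1 CPM on chow and 9.61, 2.01 and 119.8 CPM on cholic acid, so that chow 3 and cholic acid 3 were both high. The immediate early gene Fos, at 0.435, 0.201 and 107 CPM on chow and 114, 1.0 and 11.7 CPM on cholic acid, was high in chow 3 and cholic acid 1. None of Saa1, Lcn2, Atf3, Fos, Dbp or Hamp passed the test between the diets. Without chow 3, Lcn2 passed as raised on cholic acid (log2 fold change 1.124, adjusted p 0.0199), where its value with all 6 libraries was -2.91 ± 1.33 (SE), adjusted p 0.235, and Hamp passed as lowered (log2 fold change -1.02, adjusted p 0.0441, against -0.50 ± 0.70, adjusted p 0.701 with all 6). Of the list of 29 acute phase genes, 24 were higher in chow 3 than in both other chow libraries and 4 were lower than both, against 43.3% and 41.4% of all genes tested.

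**Figure D1:**
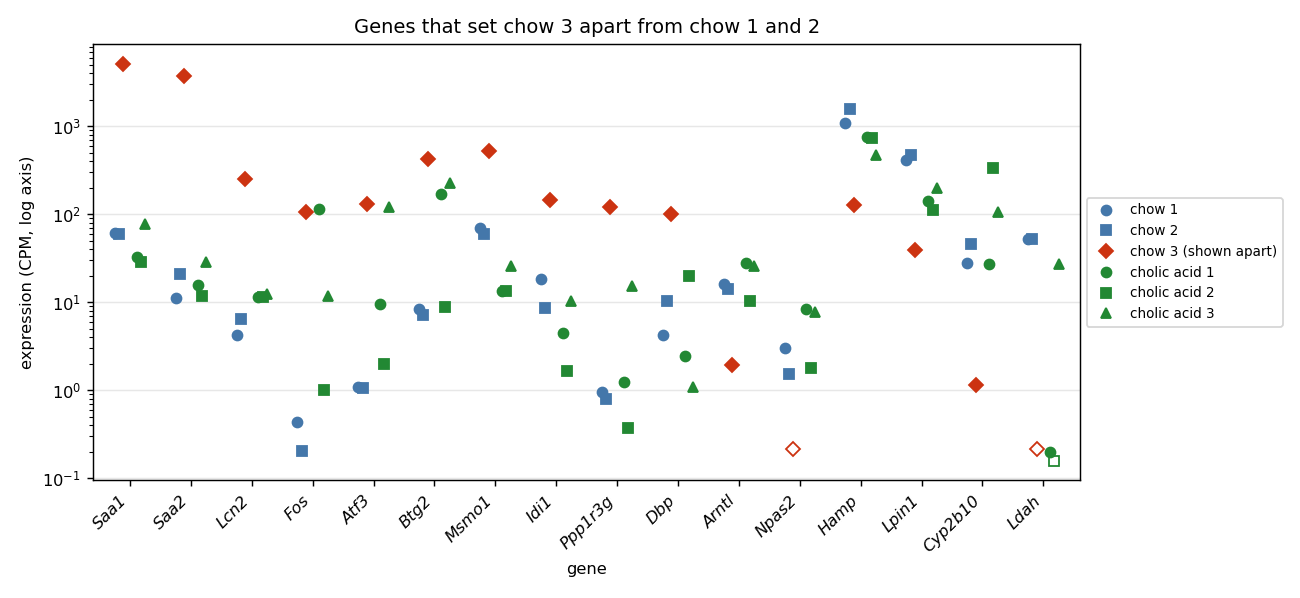
Expression in CPM (log axis) of 16 genes in the 6 libraries, with chow 3 as red diamonds, the other chow libraries in blue and the cholic acid libraries in green; each point is 1 library and open symbols lie below the level of 3 counts and are drawn at it. Saa1, Saa2 and Lcn2 are highest in chow 3, and Arntl, Npas2 and Hamp are lowest there.

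Between the diets, 600 of the 12577 genes changed (4.77%): 285 rose (2.27%) and 315 fell (2.5%). Without chow 3, 1345 of 12958 genes changed (10.4%), with 719 raised (5.55%) and 626 lowered (4.83%), and 596 of the 600 were among them. In the fits that left out 1 of the other 5 libraries, 189 to 298 genes changed: 298 without chow 1, 194 without chow 2, 271 without cholic acid 1, 189 without cholic acid 2 and 196 without cholic acid 3. Deviations from the group means correlated over genes at 0.133, 0.155 and 0.103 between same-numbered libraries of both diets. Between differently numbered libraries the correlations were -0.106 to -0.051. Deviations within a group cancel out, so these values are tied to one another and do not establish a pairing. When the library number was added to the model as a block, the test gave 480 changed genes (3.82%). The levels of the groups did not overlap, with every library on 1 diet above every library on the other, for 3925 genes (31.2%).

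Transcripts of the main enzymes of bile acid synthesis were lower on cholic acid. Among 15 enzymes of the pathway, 5 fell and 0 rose (33.3% changed, against 4.77% of all genes tested). Their median log2 fold change was -0.51, against 0.01 over all genes tested. Cyp8b1, the sterol 12-alpha-hydroxylase that directs synthesis towards cholic acid, was at 651, 708 and 1189 CPM on chow and 2.08, 1.58 and 1.65 CPM on cholic acid. Every cholic acid library lay below every chow library, and the log2 fold change was -8.90 ± 0.36, adjusted p 6.25e-05. Cyp7a1, the rate-limiting enzyme, was at 109, 157 and 711 CPM on chow and 1.24, 0.897 and 0.706 CPM on cholic acid. Chow 3 was the highest chow library, and the log2 fold change was -8.42 ± 0.89, adjusted p 0.00316, or -7.13 without chow 3 (adjusted p 4.35e-05). Cyp7b1, which acts in the alternative route that starts with side-chain oxidation, was at 721, 396 and 435 CPM on chow and 85.5, 48.6 and 74.8 CPM on cholic acid, with no overlap (log2 fold change -2.89 ± 0.31, adjusted p 0.00353). Those 3 genes fell in each of the 6 fits that left out 1 library. Cyp7b1 is also counted in the list of male-biased genes below.

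The enzymes outside these hydroxylases moved less. Cyp27a1, which opens the alternative route, overlapped between the diets at 487, 578 and 383 CPM on chow and 406, 550.1 and 437 CPM on cholic acid (log2 fold change -0.06 ± 0.21, adjusted p 0.899). Of the peroxisomal proteins that shorten and release the side chain, Scp2 fell (log2 fold change -1.21 ± 0.18, adjusted p 0.0113), from 5022, 4212 and 4187 CPM to 2056, 1774 and 1968 CPM. It did not pass without cholic acid 3, at an adjusted p of 0.0516. Acot8 also fell (log2 fold change -0.95 ± 0.18, adjusted p 0.0261), but not with the replicate block (adjusted p 0.067) nor without any 1 of chow 2 and the 3 cholic acid libraries (adjusted p up to 0.109). The conjugating enzymes Baat and Slc27a5 had log2 fold changes of -0.51 ± 0.19, adjusted p 0.163 and -0.51 ± 0.17, adjusted p 0.125, and neither passed. Cyp39a1, an oxysterol hydroxylase, had a log2 fold change of 1.29 ± 0.38, adjusted p 0.0902.

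Among the receptors and repressors, Shp and its inducer went in opposite directions. Nr0b2 was at 14.4, 16.9 and 18.2 CPM on chow and 89.6, 42.6 and 60.3 CPM on cholic acid, with no overlap (log2 fold change 1.96 ± 0.27, adjusted p 0.00982), and it rose in each of the 6 fits that left out 1 library. Nr1h4 was at 120.2, 143 and 139.6 CPM on chow and 63.6, 80.9 and 55.3 CPM on cholic acid, and every cholic acid library was lower (log2 fold change -1.01 ± 0.19, adjusted p 0.0219). Its call was lost without chow 2, cholic acid 1 or cholic acid 3 (adjusted p up to 0.0981). Of the 12 receptor and repressor genes tested, 3 rose and 1 fell (33.3% changed, against 4.77% of all genes tested). The others that rose were Nr1i2 (log2 fold change 0.68 ± 0.15, adjusted p 0.0443) and the coactivator Ppargc1a (log2 fold change 1.08 ± 0.18, adjusted p 0.0164). Nr1i2 did not pass with the replicate block (adjusted p 0.0852), and both lost the call without any 1 library other than chow 3 (adjusted p up to 0.147 for Nr1i2 and 0.0693 for Ppargc1a). Nr1i3 overlapped between the diets (180.1, 226 and 176 CPM on chow, 189.6, 208 and 102 CPM on cholic acid), and most of its annotated exon bases are overlapped by Tomm40l on the other strand.

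Of 5 promoters searched for motifs (Cyp8b1, Nr0b2, Slc51a, Slc51b and Abcb11), those of Cyp8b1 and Nr0b2 are shown because Shp is known to repress bile acid synthesis through Nr5a2, a nuclear receptor that binds the letters CAAGGNCA, and because both windows hold that motif. Each window runs from 250 bases before to 50 bases after the RefSeq start (GRCm38.p6), 5′ to 3′ on the gene's strand, with the motif in capitals. It lies 60 bases before the start in Cyp8b1, at chr9:121916256-121916555 on the minus strand, and 201 bases before the start in Nr0b2, at chr4:133553126-133553425 on the plus strand.
Cyp8b1: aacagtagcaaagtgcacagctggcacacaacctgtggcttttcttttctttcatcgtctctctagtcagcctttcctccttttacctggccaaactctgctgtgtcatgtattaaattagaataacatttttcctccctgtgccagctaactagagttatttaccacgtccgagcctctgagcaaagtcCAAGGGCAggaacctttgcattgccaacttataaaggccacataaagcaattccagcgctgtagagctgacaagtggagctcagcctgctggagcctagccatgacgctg
Nr0b2: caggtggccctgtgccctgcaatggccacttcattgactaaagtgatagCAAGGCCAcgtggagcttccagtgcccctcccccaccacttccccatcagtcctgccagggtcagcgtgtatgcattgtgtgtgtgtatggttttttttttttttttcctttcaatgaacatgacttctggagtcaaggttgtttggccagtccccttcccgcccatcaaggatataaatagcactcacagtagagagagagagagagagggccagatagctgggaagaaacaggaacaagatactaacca
On both strands together, 6.709% of 32851 RefSeq promoters of this length hold the motif. The motif was also found in the Slc51a window, 136 bases before the start of a gene that had 0 counts in all 6 libraries, and not in the windows of Slc51b and Abcb11. The inverted repeat to which Fxr binds, searched as GGTCA followed after 1 base by its reverse complement, was in none of the 5 windows and is in 0.03957% of all promoters. The receptor half-site AGGTCA was in the windows of Slc51a, Slc51b and Abcb11, at 58, 203 and 56 bases before the start, and is in 16.26% of all promoters. A match to these letters is a description of the sequence and not a measured site, and a missing match says nothing of the factor.

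Transcripts of several exporters of bile acids and of biliary cholesterol, and of the uptake carrier Slco1a4, were higher on cholic acid. The calls of the bile acid exporters were lost in several fits, as given below. Of 18 transporter genes tested, 8 rose and 1 fell (50% changed, against 4.77% of all genes tested). Their median log2 fold change was 0.68. Abcg5, a subunit of the pump that moves cholesterol into bile, was at 58.9, 62.7 and 68.4 CPM on chow and 304, 226 and 162 CPM on cholic acid (log2 fold change 1.86 ± 0.24, adjusted p 0.00808). Its partner Abcg8 was at 102, 88.6 and 69.9 CPM on chow and 400.0, 294 and 227 CPM on cholic acid (log2 fold change 1.82 ± 0.25, adjusted p 0.00945). Both subunits were higher in every cholic acid library. Abcb1a, a multidrug efflux pump, was at 0.871, 1.34 and 1.99 CPM on chow and 28.4, 66.8 and 34.4 CPM on cholic acid (log2 fold change 4.94 ± 0.44, adjusted p 0.00204). Slco1a4, an uptake carrier of organic anions, was at 39.4, 93.4 and 98.3 CPM on chow and 414, 580.4 and 458 CPM on cholic acid (log2 fold change 2.65 ± 0.35, adjusted p 0.00877). Those 4 genes rose in each of the 6 fits that left out 1 library.

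The bile salt export pump Abcb11 was at 555, 493 and 322 CPM on chow and 969, 915 and 874 CPM on cholic acid. The groups did not overlap, and chow 3 was the lowest library (log2 fold change 1.01 ± 0.22, adjusted p 0.0418). The canalicular pump Abcc2 (0.84 ± 0.16, adjusted p 0.0262) and the sinusoidal pump Abcc4 (1.87 ± 0.36, adjusted p 0.0243) rose as well. With the replicate block none of Abcb11, Abcc2 and Abcc4 passed (adjusted p 0.0504, 0.071 and 0.0565). Abcb11 and Abcc2 lost the call without any 1 library other than chow 3 (adjusted p up to 0.136 and 0.121), and Abcc4 without chow 1, chow 2, cholic acid 1 or cholic acid 2 (up to 0.0949). Slc51b, a subunit of the basolateral exporter of bile acids, had 0 counts in chow 1 and chow 2, was at 0.498 CPM in chow 3 and stood at 2.97, 8.13 and 5.5 CPM on cholic acid. Its log2 fold change (5.01 ± 0.90, adjusted p 0.0202) depends on how zeros are handled, and the call was lost without chow 1, chow 2, cholic acid 2 or cholic acid 3 (adjusted p up to 0.0707). The other subunit, Slc51a, had 0 counts in all 6 libraries. The uptake carriers went both ways. While Slco1a4 rose, as given above, Slco1a1 fell from 446, 509 and 656 CPM to 41.8, 13.5 and 105 CPM (log2 fold change -3.33 ± 0.64, adjusted p 0.026), although not without chow 1, chow 2 or cholic acid 1 (adjusted p up to 0.104). Slc10a1, the sodium-dependent bile acid importer, had a log2 fold change of -0.88 ± 0.22, adjusted p 0.062 and did not pass, although its groups did not overlap.

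**Figure D2:**
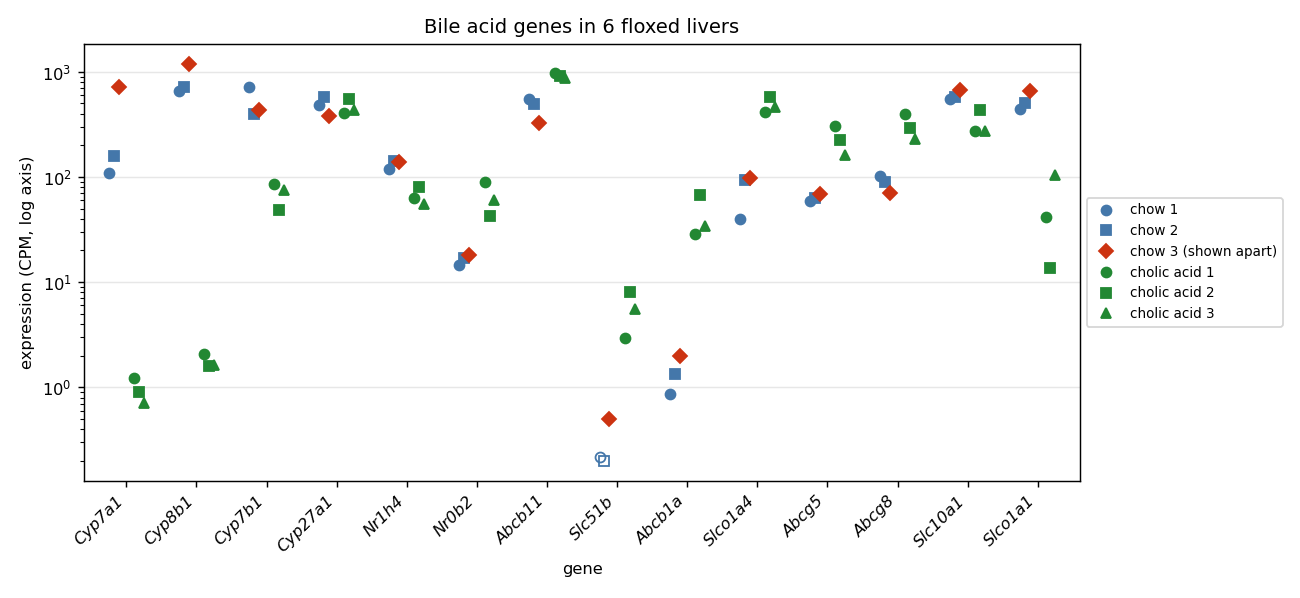
Expression in CPM (log axis) of 14 genes of bile acid synthesis, sensing and transport, with 1 point per library, chow 3 as red diamonds and open symbols drawn at the level of 3 counts. Cyp7a1 and Cyp8b1 lie between 0.706 and 2.08 CPM in the cholic acid libraries and above 100 CPM in every chow library.

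Enzymes of glutathione conjugation and of the Nrf2 response, which protects against reactive compounds, were tested as 1 list. Of 38 genes tested, 17 rose and 1 fell (47.4% changed, against 4.77% of all genes tested). Their median log2 fold change was 0.75. Without chow 3, 19 rose and 2 fell, where 5.55% and 4.83% of all genes tested did. Gstm3, a mu class glutathione transferase, was at 56.5, 66.1 and 96.3 CPM on chow and 2943, 6606 and 6775 CPM on cholic acid, a 74.6-fold rise (log2 fold change 6.22 ± 0.43, adjusted p 0.0019). The abundant transferase Gstm1 was at 1289.6, 1625 and 1096 CPM on chow and 10056, 15359 and 11580.5 CPM on cholic acid (log2 fold change 3.21 ± 0.26, adjusted p 0.0019). The alpha class gene Gsta1 was at 6.6, 3.55 and 7.32 CPM on chow and 99.9, 248 and 270.0 CPM on cholic acid (log2 fold change 5.14 ± 0.47, adjusted p 0.00204). No library on chow reached the lowest library on cholic acid in any of the 17 genes. Such separation held for the called genes of every list, so it adds nothing to the calls. Of all genes tested, 15.5% had every cholic acid library above every chow library. Akr1b7, an aldo-keto reductase, had the largest log2 fold change of the list, from 0.218, 0.468 and 1.137 CPM to 35.4, 139 and 38.9 CPM (log2 fold change 6.86 ± 0.77, adjusted p 0.00423). The quinone reductase Nqo1 rose from 5.01, 5.22 and 5.33 CPM to 21.1, 39.4 and 28.8 CPM (log2 fold change 2.52 ± 0.25, adjusted p 0.00256). Of the 17 genes, 8 rose in each of the 6 fits that left out 1 library: Gsta1, Gsta4, Gstm1, Gstm2, Gstm3, Nqo1, Ephx1 and Akr1b7. Gclc, the catalytic subunit that makes glutathione, rose from 185, 172 and 126 CPM to 435, 426 and 693 CPM (log2 fold change 1.68 ± 0.25, adjusted p 0.0113), with an adjusted p of 0.0504 without chow 2. Srxn1 was the gene of the 17 that did not pass with the replicate block (adjusted p 0.0561), and it lost the call without chow 1, chow 2, cholic acid 2 or cholic acid 3 (up to 0.149). The microsomal transferase Mgst1 fell (log2 fold change -1.24 ± 0.23, adjusted p 0.0211), with adjusted p up to 0.0916 without chow 2 or any 1 cholic acid library. The mu class genes are similar in sequence, and part of the annotated Akr1b7 exons is overlapped by a gene on the other strand, so these genes are uncertain as single genes.

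Cytochromes of families 1 to 3, which oxidise drugs and steroids, split between the directions: 7 of 40 rose and 11 fell. The shares over all genes tested were 2.27% raised and 2.5% lowered. Cyp2c55 rose from 7.04, 16.6 and 9.31 CPM to 115, 341 and 326 CPM (log2 fold change 4.57 ± 0.51, adjusted p 0.0039). Cyp3a11, a major steroid and drug oxidase of mouse liver, rose from 5156, 5863 and 6068 CPM to 13997, 25480.2 and 21730.5 CPM (log2 fold change 1.84 ± 0.26, adjusted p 0.0103). Its relative Cyp3a59 rose from 26.1, 25.8 and 78.0 CPM to 359, 665 and 411 CPM (log2 fold change 3.47 ± 0.49, adjusted p 0.0103). Those 3 rose in each of the 6 fits that left out 1 library. Cyp2b10, the standard target of Car, was at 27.7, 45.7 and 1.137 CPM on chow and 26.9, 336 and 106 CPM on cholic acid, and cholic acid 1 lay within the range of the chow libraries (log2 fold change 2.65 ± 1.15, adjusted p 0.214). Among those that fell, Cyp2c54 went from 308, 390.2 and 467 CPM to 52.5, 99.9 and 102 CPM (log2 fold change -2.20 ± 0.29, adjusted p 0.00894) and was the 1 gene of the 11 that fell in all 6 fits that left out 1 library. Cyp2e1, which oxidises ethanol and small solvents, went from 9621, 11509.7 and 10368 CPM to 4269, 5191 and 3660.2 CPM (log2 fold change -1.26 ± 0.21, adjusted p 0.015), with adjusted p up to 0.0711 without chow 2, cholic acid 1 or cholic acid 3.

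Conjugating enzymes of the glucuronosyl and sulfo transferase families also moved both ways, with 4 of 32 raised and 8 lowered. The share changed was 37.5%, against 4.77% of all genes tested. Sult2a8, a sulfotransferase that acts on bile acids, fell from 845, 859 and 1968 CPM to 42.7, 19.4 and 48.9 CPM (log2 fold change -5.05 ± 0.50, adjusted p 0.00256). Sult5a1 fell from 15.2, 14.2 and 15.9 CPM to 2.28, 1.48 and 1.32 CPM (log2 fold change -3.15 ± 0.25, adjusted p 0.0019). Ugt2b38 fell from 43.7, 12.1 and 10.7 CPM to 0.941, 0.317 and 0.941 CPM (log2 fold change -4.89 ± 0.68, adjusted p 0.00982). These 3 and Ugt3a1 fell in each of the 6 fits that left out 1 library. The glucuronosyltransferase Ugt1a9 rose (log2 fold change 1.95 ± 0.31, adjusted p 0.0141), as did Ugt1a1, the enzyme that conjugates bilirubin (log2 fold change 1.21 ± 0.22, adjusted p 0.0197). Ugt1a1 did not pass with the replicate block (adjusted p 0.0557). Without 1 library the adjusted p reached 0.0541 for Ugt1a9 (calls lost without chow 1 or cholic acid 2) and 0.0889 for Ugt1a1 (without chow 1, chow 2, cholic acid 2 or cholic acid 3). The Ugt1a genes share annotated exons, so reads there cannot be given to 1 of them.

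Genes with higher expression in male than in female mouse liver were mostly lowered. Of 23 tested, 18 fell and 0 rose (median log2 fold change -2.77), with 18 lowered and 0 raised also without chow 3. This pattern of expression is known to be kept by the pulses of growth hormone in males. Selenbp2, a selenium-binding protein, went from 1146, 592 and 408 CPM to 13.5, 4.7 and 13.8 CPM (log2 fold change -6.07 ± 0.58, adjusted p 0.00256). Hsd3b5, a steroid reductase, went from 193, 129.8 and 153 CPM to 3.22, 0.581 and 3.67 CPM (log2 fold change -5.98 ± 0.58, adjusted p 0.00256). The major urinary protein gene Mup3 went from 11718, 14762 and 9542 CPM to 3199, 2648 and 3989 CPM (log2 fold change -1.87 ± 0.25, adjusted p 0.00913). In all 3 genes the groups did not overlap. Serpina1e, a protease inhibitor, went from 9641, 11225 and 9016 CPM to 933, 168 and 1078 CPM (log2 fold change -3.78 ± 0.62, adjusted p 0.015), with an adjusted p of 0.0505 without chow 2. Elovl3, a fatty acid elongase, was at 1078, 826 and 198 CPM on chow and 48.1, 11.1 and 95.3 CPM on cholic acid, and chow 3 was the lowest chow library (log2 fold change -3.77 ± 0.84, adjusted p 0.0443). Elovl3, Mup21 and Cyp2u1 did not pass with the replicate block (adjusted p 0.0991, 0.0954 and 0.0636) nor without any 1 library other than chow 3 (adjusted p up to 0.145, 0.115 and 0.169). Single genes of the Mup and Serpina1 families are uncertain, since their copies are nearly identical. The share of reads with no unique position averaged 24.3% ± 0.713 in the chow libraries and 17.1% ± 0.520 in those on cholic acid (SD over 3 libraries each), with no overlap, and its part in the values of these families was not tested.

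Of the female-biased genes, 1 of 15 tested rose and 0 fell (median log2 fold change 0.30), and 12 members had too few counts. The share changed was 6.67%, near the 4.77% of all genes tested. With the replicate block 3 were raised: Cyp2a4 (adjusted p 0.0169), Cyp2b9 (0.0172) and Fmo2 (0.0483), where their adjusted p without the block was 0.0527, 0.0965 and 0.0795. Without chow 3, Cux2 and the peroxisomal transporter gene Abcd2 were raised and the median was 1.38. In chow 3, 12 of the 15 were higher than in both other chow libraries, where 43.3% of all genes tested were. The gene that rose with all 6 libraries was Cux2, a female-biased transcription factor, which was at 0.218, 0.134 and 1.56 CPM on chow and 42.3, 50.6 and 5.46 CPM on cholic acid (log2 fold change 5.68 ± 1.02, adjusted p 0.02). Cholic acid 3 was well below the other cholic acid libraries, and the call was lost with the replicate block (adjusted p 0.067) and without chow 1, chow 2, cholic acid 1 or cholic acid 2 (adjusted p up to 0.0822). The list of growth hormone signalling also holds Egfr and Lifr, which are receptors of other ligands. Of its 13 genes 1 rose and 4 fell, where 2.27% and 2.5% of all genes tested did. Those that fell were Ghr, Igfals, Egfr and Lifr, and none of them fell in each of the 6 fits that left out 1 library. The receptor Ghr was at 513, 507 and 622 CPM on chow and 254, 166 and 236 CPM on cholic acid (log2 fold change -1.32 ± 0.21, adjusted p 0.0131). The epidermal growth factor receptor Egfr was at 935, 529 and 402 CPM on chow and 167, 93.6 and 134 CPM on cholic acid (log2 fold change -2.24 ± 0.35, adjusted p 0.013). Both receptors were lower in every cholic acid library. Igfals, which carries Igf1 in blood, fell too (log2 fold change -1.55 ± 0.25, adjusted p 0.0141), and Stat5b rose (log2 fold change 1.00 ± 0.18, adjusted p 0.0211). Igf1 itself was at 698, 653 and 619.6 CPM on chow and 437, 243 and 236 CPM on cholic acid and did not pass (log2 fold change -1.10 ± 0.26, adjusted p 0.0506). It passed without chow 3 (adjusted p 0.039) and with the replicate block (adjusted p 0.0459). Ghr lost its call without cholic acid 3 (adjusted p 0.0526), Egfr without cholic acid 2 or 3 (up to 0.0631), Igfals without chow 2 or cholic acid 2 (up to 0.0642) and Stat5b without any 1 library other than chow 3 (up to 0.0966).

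**Figure D3:**
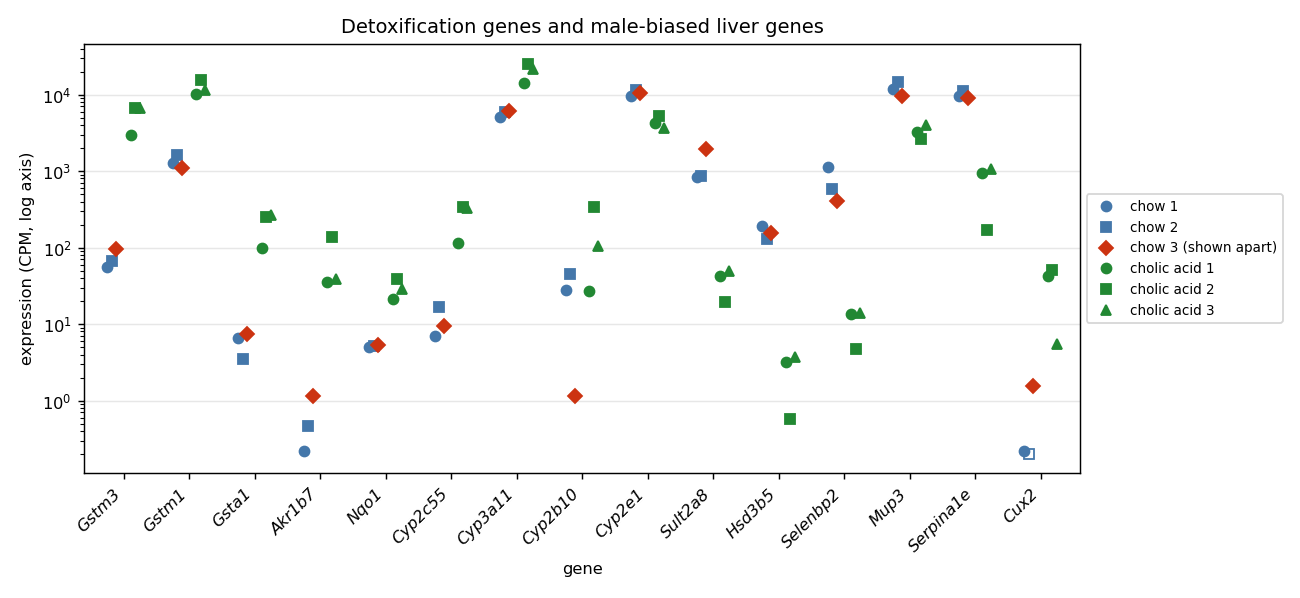
Expression in CPM (log axis) of 15 detoxification and sex-biased genes, with 1 point per library, chow 3 as red diamonds and open symbols drawn at the level of 3 counts. Gstm3, Gstm1 and Gsta1 are higher in every cholic acid library, Hsd3b5 and Selenbp2 are lower in every one, and Cyp2b10 overlaps.

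Of 40 genes of mitosis tested, 14 rose and 0 fell (median log2 fold change 2.31), where 2.27% of all genes tested rose. The count without 1 library was 37 without chow 3 (median 3.36), 4 without chow 1, 1 without chow 2, 10 without cholic acid 1, 2 without cholic acid 2 and 2 without cholic acid 3, with 0 lowered in each. In chow 3, 38 of the 40 genes were above both other chow libraries, where 43.3% of all genes tested were. Hmmr, a gene outside this list that helps to build the spindle, was at 0.29, 0.268 and 1.28 CPM on chow and 5.0, 10.8 and 8.09 CPM on cholic acid (log2 fold change 3.69 ± 0.59, adjusted p 0.0136, 4.80 without chow 3). Ccnb1, the cyclin of entry into mitosis and a member of the list, was at 0.145, 0.535 and 1.28 CPM on chow and 5.05, 13.4 and 8.14 CPM on cholic acid (log2 fold change 3.75 ± 0.63, adjusted p 0.0158, 4.65 without chow 3). In both genes chow 3 was the highest chow library and still lay below every cholic acid library. The groups were separated in all 14 genes of the list that rose, so this is no added support. Mki67, a marker of cycling cells, was at 1.52, 1.41 and 5.62 CPM on chow and 9.16, 17.7 and 12.9 CPM on cholic acid (log2 fold change 2.22 ± 0.53, adjusted p 0.0528). It did not pass with all 6 libraries, passed without chow 3 (adjusted p 0.00406) and passed with the replicate block (adjusted p 0.0473). The kinase gene Nek2 was the 1 of the 14 that rose in each of the 6 fits that left out 1 library (log2 fold change 1.87 ± 0.23, adjusted p 0.00619). Hmmr and Ccnb1 lost the call without chow 2, cholic acid 2 or cholic acid 3 (adjusted p up to 0.0541 and 0.076). Ccnb2, Aurkb and Foxm1 did not pass with the replicate block (adjusted p 0.0719, 0.0863 and 0.0561) nor without any 1 library other than chow 3 (up to 0.129, 0.138 and 0.116). In whole tissue, a change in the number of cells of a type and a change in the RNA per cell cannot be told apart.

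Replication and S phase genes moved less: 3 of 38 rose and 1 fell (median log2 fold change 0.23). Of all genes tested, 2.27% rose and 2.5% fell. Without chow 3, 9 rose and 3 fell, where 5.55% and 4.83% of all genes tested did. Ccnd1, the cyclin of the early cell cycle, was at 22.9, 22.95 and 25.8 CPM on chow and 91.5, 119 and 135 CPM on cholic acid, with no overlap (log2 fold change 2.27 ± 0.19, adjusted p 0.0019). It rose in each of the 6 fits that left out 1 library, and part of its annotated exons is overlapped by a gene on the other strand. Mcm10, a replication initiation factor, fell from 102, 66.9 and 90.6 CPM to 19.2, 18.2 and 24.8 CPM (log2 fold change -2.06 ± 0.21, adjusted p 0.00297). The clamp protein gene Pcna overlapped between the diets, at 24.4, 29.3 and 28.2 CPM on chow and 20.4, 28.4 and 24.5 CPM on cholic acid (log2 fold change -0.16 ± 0.18, adjusted p 0.623).

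Of 26 cholesterol synthesis and uptake genes tested, 3 fell and 0 rose with all 6 libraries (median log2 fold change -1.36). The share changed was 11.5%, against 4.77% of all genes tested. Without chow 3, 7 fell and 0 rose (median -0.69), and with the replicate block 15 fell and 0 rose. The levels did not overlap for 15 of the 26, with cholic acid below chow in each, where 15.7% of all genes tested had this order. In chow 3, 25 of the 26 were above both other chow libraries, where 43.3% of all genes tested were. Ebp, a sterol isomerase, was at 244, 268 and 315 CPM on chow and 128, 94.9 and 109.7 CPM on cholic acid (log2 fold change -1.31 ± 0.18, adjusted p 0.00982), and it fell in each of the 6 fits that left out 1 library. Sqle, the squalene epoxidase, was at 25.5, 24.4 and 105 CPM on chow and 3.27, 1.85 and 11.9 CPM on cholic acid. Its groups did not overlap, but it did not pass (log2 fold change -3.18 ± 0.81, adjusted p 0.0633, adjusted p 0.0037 with the block).

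**Figure D4:**
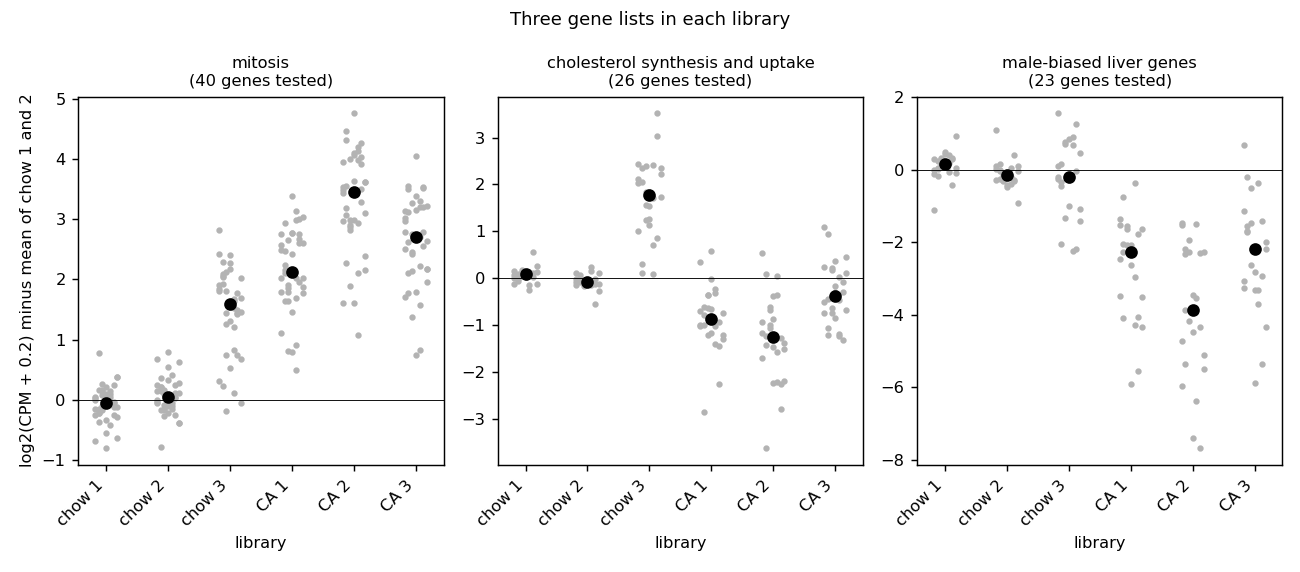
Each grey point is 1 gene in 1 library and each black point the median of the list, as log2(CPM + 0.2) minus the mean of chow 1 and chow 2. In chow 3 the median was 1.60 for mitosis and 1.78 for cholesterol synthesis, and on cholic acid the medians were 2.13 to 3.46 for mitosis and -3.86 to -2.17 for male-biased genes.

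Fatty acid oxidation and targets of Ppara, the receptor that drives it, fell in part: 9 of 33 fell and 0 rose (median log2 fold change -0.63). The share changed was 27.3%, against 4.77% of all genes tested. Fabp1, the liver fatty acid binding protein, was at 3345, 3381 and 4668 CPM on chow and 1111, 855 and 1443 CPM on cholic acid (log2 fold change -1.74 ± 0.25, adjusted p 0.0111). Vnn1, a pantetheinase induced by Ppara, was at 68.5, 59.8 and 73.2 CPM on chow and 23.5, 32.8 and 31.4 CPM on cholic acid (log2 fold change -1.20 ± 0.18, adjusted p 0.0113). These 2 fell in each of the 6 fits that left out 1 library. Cpt1a, which admits fatty acids to mitochondria, had a log2 fold change of -0.58 ± 0.20, adjusted p 0.134. Acaa2 and Acaa1b, thiolases of the pathway, did not pass with the replicate block (adjusted p 0.0898 and 0.0702) nor without any 1 library other than chow 3 (up to 0.169 and 0.122).

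In glucose metabolism 2 of 24 genes fell and 0 rose (8.33% changed, where 4.77% of all genes tested did). Pfkfb1, which sets the level of a regulator of glycolysis, was at 46.5, 62.8 and 56.8 CPM on chow and 17.98, 14.3 and 14.3 CPM on cholic acid (log2 fold change -1.83 ± 0.18, adjusted p 0.00256), and it fell in each of the 6 fits that left out 1 library. Gys2, the liver glycogen synthase, fell (log2 fold change -1.08 ± 0.23, adjusted p 0.0347), with adjusted p up to 0.127 without any 1 library other than chow 3. Pck1, an enzyme of gluconeogenesis, overlapped (3137, 4186 and 4319.8 CPM on chow, 4524, 3983 and 3437 CPM on cholic acid). With all 6 libraries none of 28 fatty acid and triglyceride synthesis genes and none of 20 clock genes passed, nor did any with the replicate block. Without chow 3, Pnpla3 of the synthesis genes was raised and Agpat2, Lpin1, Pklr and Plin4 were lowered. Lpin1, a phosphatidate phosphatase, was at 417, 469.9 and 39.5 CPM on chow and 141, 111 and 199 CPM on cholic acid, and chow 3 was the lowest of the 6 libraries (log2 fold change -1.04 ± 0.71, adjusted p 0.418, -1.56 without chow 3). Of the clock genes, Hlf was lowered without chow 3.

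Outside these lists, Il22ra1, a receptor subunit for interleukin 22, rose from 1.23, 0.736 and 1.49 CPM to 20.5, 13.99 and 29.4 CPM (log2 fold change 4.20 ± 0.37, adjusted p 0.00204). Dio1, which activates thyroid hormone, fell from 147, 128 and 305 CPM to 16.0, 4.86 and 7.2 CPM (log2 fold change -4.37 ± 0.53, adjusted p 0.00619). Car3, a carbonic anhydrase, fell from 2628, 3093 and 1479 CPM to 60.6, 34.6 and 211 CPM (log2 fold change -4.55 ± 0.70, adjusted p 0.0121). In these 3 genes no library on chow reached the range on cholic acid, and each changed in all 6 fits that left out 1 library. Genes outside the lists were named for separated groups and a call without chow 3, or after their values were seen. The separation and the fit without chow 3 are therefore no added support.

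Markers of other liver cells were examined as lists. The share changed was 7.69% for bile duct, 8% for stellate cell and matrix, and 4.76% for macrophage and leukocyte markers. Over all genes tested it was 4.77%. Among bile duct markers 1 of 13 rose and 0 fell. It was Prom1, a membrane protein of progenitor and duct cells, at 0.145, 0.602 and 0.924 CPM on chow and 16.3, 21.1 and 6.16 CPM on cholic acid (log2 fold change 4.68 ± 0.63, adjusted p 0.00903), while the duct keratin Krt19 overlapped at 0.508, 1.47 and 1.21 CPM and 0.991, 0.897 and 0.941 CPM (log2 fold change -0.18 ± 0.44, adjusted p 0.842). The median log2 fold change of the 13 duct markers was 0.88, against 0.01 over all genes tested. In 7 of them, and in 15.5% of all genes tested, every cholic acid library lay above every chow library. The reverse order held for 0 of the 13. Without chow 3, 3 of the 13 rose, where 5.55% of all genes tested did. Of 25 stellate cell and matrix markers, Mmp14 (log2 fold change 1.20 ± 0.17, adjusted p 0.0103) and Reln (log2 fold change 1.16 ± 0.23, adjusted p 0.0269) rose and 0 fell. Reln did not pass with the replicate block (adjusted p 0.0577) nor without any 1 library other than chow 3 (up to 0.0889), and the collagen gene Col1a1 overlapped between the diets (log2 fold change 0.66 ± 0.50, adjusted p 0.463). Of 21 macrophage and leukocyte markers, Csf1r rose (log2 fold change 1.36 ± 0.24, adjusted p 0.0197; adjusted p up to 0.0862 without chow 1 or chow 2) and 0 fell. Without chow 3, 8 of them rose, where 5.55% of all genes tested did. In chow 3, 15 of the 21 were higher than in both other chow libraries, where 43.3% of all genes tested were. Adgre1, which marks macrophages, was at 3.63, 2.74 and 12.9 CPM on chow and 11.4, 9.29 and 19.7 CPM on cholic acid, so that chow 3 lay among the cholic acid libraries (log2 fold change 1.07 ± 0.56, adjusted p 0.295, 2.08 without chow 3). No endothelial marker of 16 and no adipocyte marker of 6 passed. Of 13 pancreatic acinar genes the 1 tested, Cela1, fell (log2 fold change -1.90 ± 0.18, adjusted p 0.00256), while the defining enzymes Cpa1 and Prss2 had 0 counts in all 6 libraries. The heme synthesis gene Alas2 was the 1 of 5 red cell genes that fell (log2 fold change -1.69 ± 0.26, adjusted p 0.0123; adjusted p 0.0527 without cholic acid 3), and the 1 intestinal gene tested did not pass. Of 13 hepatocyte markers, Fabp1, Cebpa and Serpina1a fell and 0 rose. Serpina1a did not pass with the replicate block (adjusted p 0.0643) nor without any 1 library other than chow 3 (up to 0.108), and Cebpa lost the call without chow 1, chow 2, cholic acid 2 or cholic acid 3 (up to 0.132). The part of these cell types in the results above was not tested.

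Of 15 pericentral genes, which are expressed around the central vein, 4 fell (26.7%) and 0 rose, where 2.5% of all genes tested fell. Glul, the pericentral glutamine synthetase, was at 931, 946 and 1036 CPM on chow and 336, 501 and 431 CPM on cholic acid (log2 fold change -1.20 ± 0.19, adjusted p 0.0141), with adjusted p up to 0.0632 without chow 2, cholic acid 1 or cholic acid 3. Gulo, an enzyme of vitamin C synthesis, was at 372, 434 and 569 CPM on chow and 164, 139 and 175 CPM on cholic acid (log2 fold change -1.52 ± 0.21, adjusted p 0.00926), and it fell in each of the 6 fits that left out 1 library. Of 15 periportal genes 2 changed (13.3%, where 4.77% of all genes tested did): Hal rose (log2 fold change 1.17 ± 0.23, adjusted p 0.0284) and Otc fell (log2 fold change -0.75 ± 0.16, adjusted p 0.0391). Otc did not pass with the replicate block (adjusted p 0.086), and without 1 library the adjusted p reached 0.117 for Hal (calls lost without chow 1, chow 2, cholic acid 1 or cholic acid 2) and 0.154 for Otc (without any 1 library other than chow 3). Among 29 acute phase genes Saa4 fell (log2 fold change -1.25 ± 0.17, adjusted p 0.00935) and 0 rose (median log2 fold change -0.45). This share of 3.45% was near the 4.77% of all genes tested. Without chow 3, Lcn2, Itih4, Serpina3m and Cd14 were raised and Saa4 and Hamp lowered, with a median of 0.0048. Among 30 stress and p53 target genes 2 rose and 0 fell (6.67% changed, near the 4.77% of all genes tested). Those 2 were Gadd45b (log2 fold change 3.28 ± 0.62, adjusted p 0.0244) and Sesn2 (log2 fold change 0.97 ± 0.20, adjusted p 0.0311; adjusted p 0.0691 with the block). Without 1 library the adjusted p reached 0.0949 for Gadd45b (calls lost without chow 1, chow 2 or cholic acid 3) and 0.123 for Sesn2 (without any 1 library other than chow 3).

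**Figure D5:**
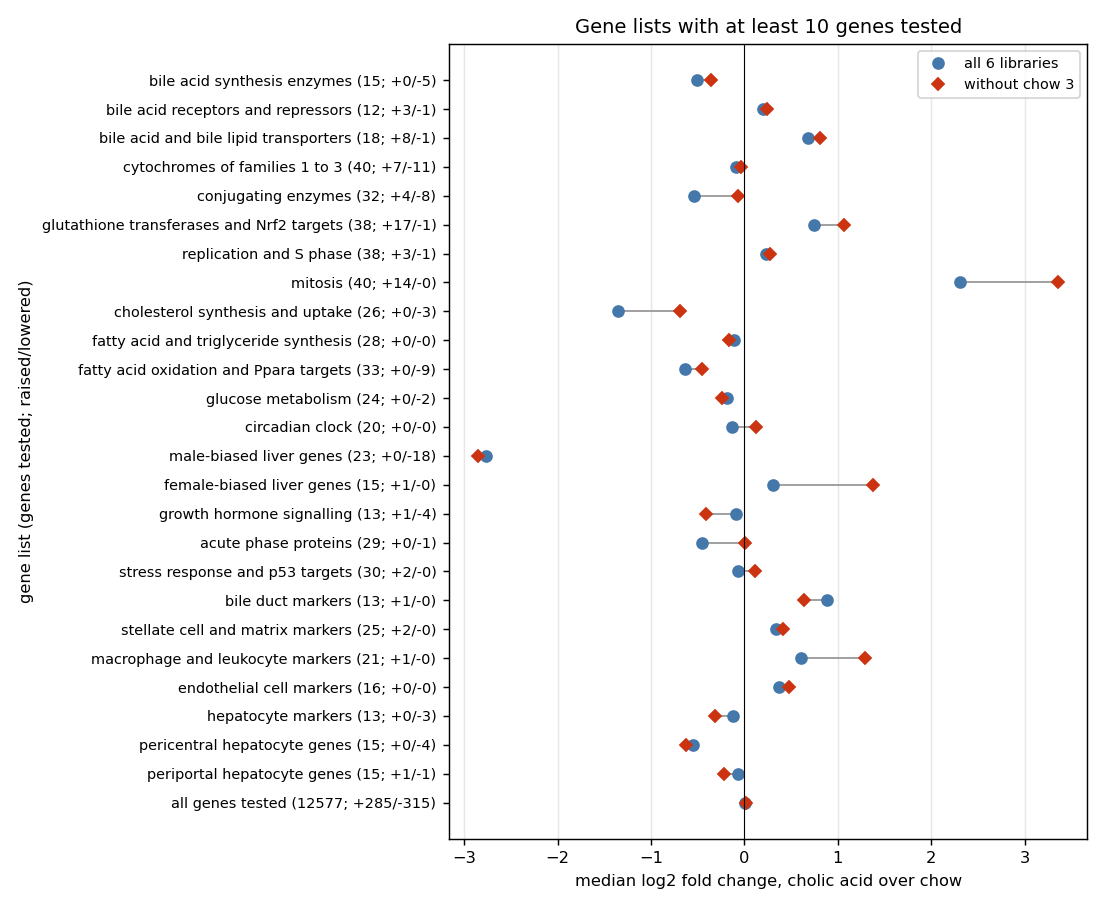
Median log2 fold change of cholic acid over chow for 25 gene lists with at least 10 genes tested and for all genes tested, with all 6 libraries (blue circles) and without chow 3 (red diamonds); each label gives the genes tested and the numbers raised and lowered with all 6. The mitosis median is 2.31 with all 6 libraries and 3.36 without chow 3, and that of male-biased genes is -2.77 and -2.85.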

How the data were processed

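Per the labels' protocols, RNA of flash-frozen liver was extracted with a column kit and sequenced from strand-marking messenger RNA libraries. The submitters' processing notes name bcl2fastq 2.17.1.14, Trimmomatic, STAR 2.4.2a, Picard 1.119, HTSeq and the builds GRCm38 and mm10. The use of strand in counting is not given in the sources used here. The authors deposited raw read counts per gene for 26 libraries, and 5 summary lines were left out of library sizes. In the 6 libraries used here, reads outside genes made up 3.75% to 4.79% of reads and reads with no unique position 23.8% to 25.1% (chow) or 16.6% to 17.6% (libraries from cholic acid feeding). Symbols were matched for 47224 of 47643 genes. Positions and exon overlaps come from GENCODE M21 (GRCm38), and promoters from RefSeq (GRCm38.p6).

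Genes were filtered with filterByExpr (minimum count 10 after scaling to library size, minimum total 15). After TMM scaling, edgeR 4.0.16 (quasi-likelihood test, with limma 3.58.1 in R 4.3.3) compared 3 cholic acid with 3 chow libraries. The test was tried on simulated counts with known changes. Alternatives were DESeq2 1.42.0, limma-voom with sample weights, other scalings and filters, all 26 libraries in 1 fit, a minimum log2 change of 1, the replicate number as a block, and leaving out each library. Fits of the 5 libraries without chow 3 that left out a further library were chosen after seeing the data. Same-numbered libraries correlated at 0.133, 0.155 and 0.103 in their deviations from the group means; the numbers come from the titles, which do not say that they mark a shared origin. The labels do not say whether libraries of a group came from separate mice, so p-values measure the spread between these libraries. An exact permutation test of 3 against 3 could not go below p 0.1.

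Named genes were the 12 largest rises and falls among called genes also called without chow 3 (average log2 CPM of at least 1, groups not overlapping), up to 4 called members of each of 29 lists, fixed role genes, and 10 list genes that differed most in chow 3. A further 59 genes were named after their values were seen. Some members of the lists are not reported here by name. The comparison, its members and the lists were chosen with earlier results of these data known. Counting error is covered by the level of 3 counts only.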

Additional observations from a re-analysis of the deposited data

Results flagged for a closer look

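Reads that fell in more than 1 gene are counted for none, and no comparison of genes uses them. Their share of all reads was 1.83% to 2.38% in the chow libraries and 2.44% to 2.85% in the cholic acid libraries (means 2.02% ± 0.316 and 2.57% ± 0.238, SD, n = 3), higher in each cholic acid library than in each chow library. With 3 libraries per group the smallest two-sided p of an exact permutation test is 0.1. Chow 3 had the highest share on chow. Its relation to the called genes was not tested.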

How the results depend on the processing

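The count of 600 changed genes (285 raised, 315 lowered) moved with the test. DESeq2's Wald test called 1445 (662 raised, 783 lowered), limma-voom with sample weights 2253 (1169 and 1084), no filter 955 (473 and 482), all 26 libraries in 1 fit 3132 (1397 and 1735), and a minimum log2 fold change of 1 called 70 (27 and 43). Leaving out 1 library gave 189 to 1345 called genes, 63 to 719 raised and 109 to 626 lowered; the lowest counts were without cholic acid 2 (called), chow 2 (raised) and cholic acid 3 (lowered), and the highest were without chow 3. DESeq2 size factors (593), upper-quartile scaling (592), robust dispersion (623) and a mean count of at least 10 (591) stayed within 1.5 times. The replicate block called 480, with 404 shared; 22 of 103 called named genes lost the call and 6 others gained it. Without chow 3, 1345 genes were called; DESeq2's Wald test then called 2025, no filter 2188, all other 25 libraries in 1 fit 3321 and the minimum change 134, and leaving out a further library gave 107 to 1457. The cause of these differences was not tested.

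None of the 103 called named genes changed direction under the 16 alternatives. Of 50 named genes not called, 15 did. When 1 library was left out, log2 fold changes ranged from -0.20 to 0.094 for Cyp27a1, -0.42 to 0.040 for Nr1i3, -0.50 to 0.13 for Krt19, -0.094 to 0.14 for Pck1, -0.25 to 0.66 for Itih4 and -0.0057 to 0.35 for Clock. With DESeq2 size factors that of Itih4 was -0.0073, and with the Wald test -0.0075. For genes that set chow 3 apart they ranged from -6.63 to 0.21 for Saa2, -5.62 to 2.69 for Ppp1r3g, -2.90 to 5.34 for Atf3, -0.70 to 4.14 for Btg2, -3.47 to 1.124 for Lcn2, -1.79 to 2.01 for S100a9, -4.43 to 0.058 for Dbp, -2.47 to 7.04 for Fos and -1.02 to 0.11 for Hamp; except for Hamp, the highest value was without chow 3. With voom weights they were 0.44 for Ppp1r3g, 2.90 for Atf3, 3.05 for Btg2, 0.75 for Lcn2 and 1.69 for S100a9. With the block they were 1.09 for Atf3, 1.02 for Btg2 and 0.037 for Hamp, and with no filter 0.029 for Atf3. Genes under 3 counts in a library, such as Slc51b on chow, have no fold change that these depths can fix.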

Other observations

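Ldah, a lipid droplet hydrolase, took separate levels from library to library. It was at 52.9, 52.7 and 0 CPM in chow 1 to 3 and at 0.198, 0.0528 and 27.0 CPM in cholic acid 1 to 3. Over the 26 libraries of the series, 4 had at most 0.202 CPM, 11 had 19.97 to 29.1 CPM and 11 had 44.1 to 55.9 CPM. Every library of the corn oil, sham and hepatectomy groups was at 44.1 to 55.9 CPM. The wild type, Fxr and Shp double knockout and wild-type chow groups lay at 23.4 to 29.1 CPM. Within the TCPOBOP, high fat and both floxed groups the libraries lay at more than 1 level. The cause of these levels was not tested.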
